A study of Mus musculus with 4 samples.

Results

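The genes described here are 10 genes of androgen production and hormone secretion in Leydig cells, the steroid-making cells of the testis interstitium. They were taken by name (Lhcgr, Star, Cyp11a1, Fdx1, Hsd3b1, Hsd3b6, Cyp17a1, Hsd17b3, Akr1c14 and Insl3) from a deposited table of 14984 genes, and each of the 10 had a row. The table holds ribosome footprints, the stretches of mRNA covered by ribosomes, from whole testes at day 10. It has 2 control libraries and 2 libraries from mice in which Stra8-Cre removed floxed Eif5, a translation initiation factor gene, from germ cells (Eif5 cKO, called knockout below). Whether the control mice carried the floxed allele or the Cre transgene is not given in the sources used here, nor is whether a library came from 1 animal or from pooled animals. If the 2 libraries of a group were not separate animals, the p-values below measure technical spread only.

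Leydig cells make testosterone from cholesterol under the control of luteinizing hormone. The hormone's receptor raises cyclic AMP, which drives transfer of cholesterol into mitochondria, and a chain of enzymes in mitochondria and endoplasmic reticulum then turns it into androgen. The mouse testis has a fetal Leydig population that makes androstenedione and an adult population, arising after birth, that makes testosterone itself. Leydig cells are somatic, and Stra8 is a germ cell gene, so these cells were not the intended target of the deletion.

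Depth per library was 2225964 to 2934609 reads. The deposited values are reads divided by a size factor for each library, and all levels below are in this normalized unit, which is not corrected for gene length, so levels of different genes are not compared. Eif5 itself had values of 365 and 304 in control replicates 1 and 2, and of 173 and 266 in knockout replicates 1 and 2 (limma adjusted p = 0.319). limma, with Benjamini-Hochberg adjustment at a threshold of 0.05, called 82 of 12095 tested genes, 0.678% of them, 9 higher and 73 lower in knockout (0.604% lower). With libraries scaled on other somatic cell genes instead, it called 0 higher and 125 lower. The 20 germ cell marker genes took 0.438% and 0.376% of reads in the controls, and 0.186% and 0.211% in the knockouts, and 11 of them were called lower.

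Regulatory sequence upstream of the transcript start was read for 8 of the 10 genes from the RefSeq promoter table (GRCm38.p6). Leydig cell genes are known targets of Nr5a1 (steroidogenic factor), which binds a core of the form CAAGG followed by TCA or a near variant. The 250 bases before each annotated start were searched on both strands for AGGTCA and for CAAGGNC, which can overlap each other, and for TATAA. The 3 windows below are shown because they hold such a match on the gene's own strand; capitals mark the matches. The Insl3 window is chr8:71689002-71689251 (plus strand), the Cyp11a1 window lies before the second of its annotated starts at chr9:58014702-58014951 (plus strand), and the Lhcgr window is chr17:88792015-88792264 (minus strand).
Insl3: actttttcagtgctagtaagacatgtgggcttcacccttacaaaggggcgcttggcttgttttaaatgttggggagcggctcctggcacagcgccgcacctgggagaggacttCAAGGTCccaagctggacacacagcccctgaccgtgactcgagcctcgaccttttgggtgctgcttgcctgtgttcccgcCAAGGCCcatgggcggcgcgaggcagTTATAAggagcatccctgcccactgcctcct
Cyp11a1: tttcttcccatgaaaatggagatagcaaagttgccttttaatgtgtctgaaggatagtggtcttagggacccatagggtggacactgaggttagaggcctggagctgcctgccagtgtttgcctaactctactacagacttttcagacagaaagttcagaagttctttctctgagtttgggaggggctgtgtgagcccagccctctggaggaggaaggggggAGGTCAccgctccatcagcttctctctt
Lhcgr: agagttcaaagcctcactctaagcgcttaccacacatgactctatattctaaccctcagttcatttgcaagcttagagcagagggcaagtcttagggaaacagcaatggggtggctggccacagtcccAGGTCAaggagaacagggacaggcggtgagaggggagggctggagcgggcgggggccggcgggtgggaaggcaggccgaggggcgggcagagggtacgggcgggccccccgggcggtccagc

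In the Insl3 window CAAGGNC occurred at 137 to 131 and at 57 to 51 bases before the start, and TATAA at 30 to 26 bases before it, with an overlapping match on the opposite strand. AGGTCA lay 28 to 23 bases before the Cyp11a1 start and 122 to 117 bases before the Lhcgr start. Fdx1 held CAAGGNC on the opposite strand. The windows of Hsd3b1, Hsd3b6, Hsd17b3 and Akr1c14, and the window before the first annotated Cyp11a1 start, held none of these matches. Of 32851 windows in the table, 14.0% held AGGTCA, 15.0% held CAAGGNC and 22.8% held TATAA. A match describes the letters alone.

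Between knockout and control testes, none of the Leydig genes passed the test over all genes, but those that could be tested all had a positive log2 fold change. Of the 10 genes, 9 passed the filter on low counts, and their median log2 fold change was 0.72, against 0.003 over all 12095 tested genes. The lowest was 0.11 for Hsd3b1 and the highest 1.04 for Akr1c14. limma called 0 of the 9, against 0.0744% of all tested genes called higher. At an unadjusted p under 0.05 it counted 6 of the 9, all higher, against 4.32% of all tested genes. That count was 4 with DESeq2, and 0 with libraries scaled on other somatic cell genes or on the Sertoli genes alone. On the recovered reads, edgeR's quasi-likelihood test, DESeq2 and limma-voom made 0 calls among the 9, against 0.0992%, 0.0496% and 0.157% of all tested genes called higher. A log2 fold change above 0 was found for 50.3% of all tested genes. In 7 of the 9 genes both knockout libraries lay above both controls, as they did for 20.0% of all tested genes. With 2 libraries against 2, the smallest two-sided p that relabelling the samples allows is 0.333. limma pools variance over genes, here with 37.0 prior degrees of freedom against 2 from the libraries. Its SEs, intervals and p-values thus rest mostly on the spread of other genes, not on that of a gene's own libraries. In whole tissue, fewer germ cells, more Leydig cells and more footprints per Leydig cell cannot be told apart.

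**Figure D1:**
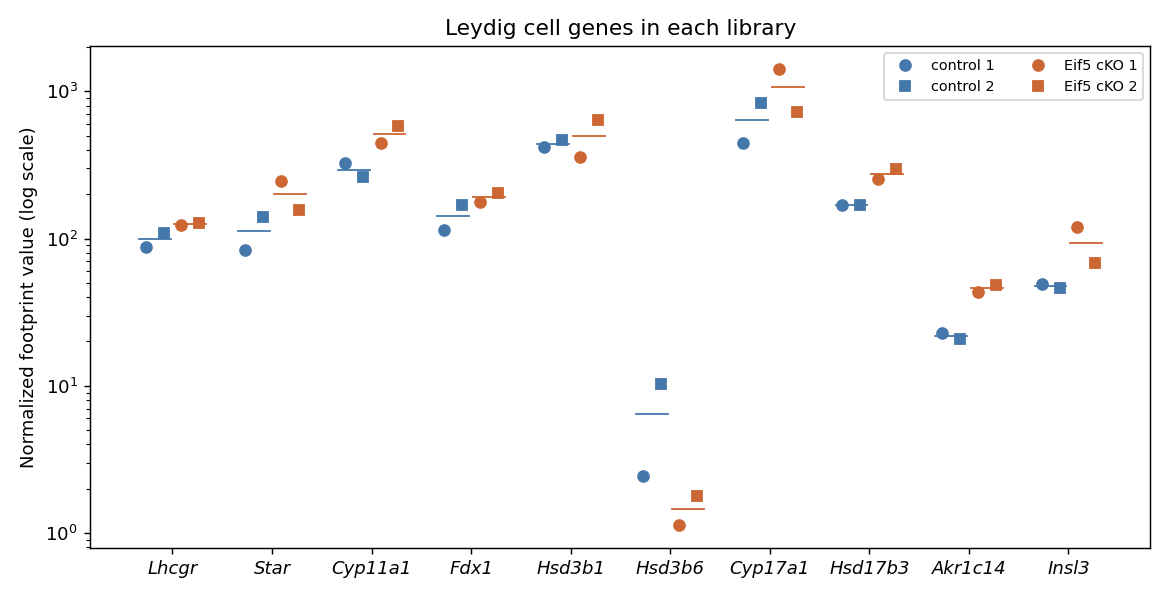
Normalized footprint value (log scale) of each of the 10 genes in the 4 libraries. Points are single libraries (circle, replicate 1; square, replicate 2; blue, control; orange, Eif5 cKO) and short lines are group means. The Eif5 cKO points lie above both controls for 7 of the 9 tested genes, overlap for Cyp17a1 and Hsd3b1, and lie below for Hsd3b6.

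Lhcgr (chromosome 17, 88716384 to 88792059, GRCm38 as for the genes below) encodes the luteinizing hormone receptor, the entry point of the pathway. It had values of 88.1 and 109 in control replicates 1 and 2 and of 124 and 127 in knockout replicates 1 and 2. Both knockout values were higher, and the group means differed by little more than the controls did. The log2 fold change was 0.35 (SE 0.30), which did not pass (limma adjusted p = 0.726).

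Star (chromosome 8, 25808474 to 25815982) carries cholesterol to the inner mitochondrial membrane, the acutely hormone-controlled step. It stood at 84.1 and 140 in control and 245 and 157 in knockout, so the highest library was knockout replicate 1 and the lowest control replicate 1. The group means were 112 ± 39.6 and 201 ± 62.5 (SD, n = 2 each). Control replicate 2 and knockout replicate 2 lay close together. Its log2 fold change came to 0.85 (SE 0.29; 95% CI from 0.26 to 1.44; limma adjusted p = 0.220).

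Cyp11a1 (chromosome 9, 57998024 to 58027031) cleaves the cholesterol side chain to give pregnenolone, and had the smallest p of the 10 genes. It went from 325 and 261 in control to 443 and 584 in knockout, with no overlap and group means of 293 ± 45.4 and 514 ± 99.7 (SD, n = 2 each). Here the highest library was knockout replicate 2. The mean was 1.75-fold higher, with a log2 fold change of 0.80 (SE 0.24, 95% CI 0.33 to 1.28; limma adjusted p = 0.114). By p it stood at rank 163 of the 12095 tested genes.

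Fdx1 (chromosome 9, 51943023 to 51963602) is the ferredoxin that passes electrons to Cyp11a1 and is also present in other cells. It had 115 and 170 in control and 177 and 204 in knockout. Control replicate 2 was almost level with knockout replicate 1. Its log2 fold change was 0.44 (SE 0.27; limma adjusted p = 0.600).

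Hsd3b1 and Hsd3b6 encode the enzymes that oxidise pregnenolone-type steroids to progesterone-type steroids; Hsd3b6 is a marker of adult Leydig cells. Hsd3b1 had 419 and 464 in control and 357 and 636 in knockout. The knockout libraries fell on either side of the controls, and its log2 fold change came to 0.11 (SE 0.24; 95% CI from -0.38 to 0.61; limma adjusted p = 0.918). The interval allows a change of either sign.

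Hsd3b6 was close to the limit of counting. It had 3 and 9 reads in control replicates 1 and 2, and 1 and 2 reads in knockout replicates 1 and 2. Both knockout values lay below both controls, as they did for 20.9% of all tested genes. Of the reads assigned to this pair, Hsd3b6 took 0.580% and 2.18% in control and 0.317% and 0.281% in knockout. At 15 reads in total it did not pass the filter, and without the filter its log2 fold change of -1.36 (SE 1.27) did not pass (limma adjusted p = 0.786). The genes lie 27912 bases apart on chromosome 3 (Hsd3b6 at 98805504 to 98814443, Hsd3b1 at 98842356 to 98859794, GRCm38). They are close paralogs, and since the handling of reads that map to several places is not given in the sources used here, their reads may be split or lost.

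Cyp17a1 (chromosome 19, 46667165 to 46673000) converts progestins to androgens. It had 448 and 836 in control and 1422 and 720 in knockout, so knockout replicate 2 lay below control replicate 2 and the groups overlapped. The group means were 642 ± 274 and 1071 ± 497 (SD, n = 2 each). The log2 fold change was 0.72 (SE 0.27, limma adjusted p = 0.272). This SE rests mostly on other genes, and the unadjusted p was 0.0102 by limma and 0.248 by DESeq2.

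Hsd17b3 (chromosome 13, 64058274 to 64089262) is the testis enzyme that reduces androstenedione to testosterone. It had the least spread between controls, though 2 libraries measure that spread poorly. It stood at 169 and 170 in control and 254 and 296 in knockout, without overlap. Group means were 169 ± 0.673 and 275 ± 29.4 (SD, n = 2 each), a 1.62-fold difference. The log2 fold change came to 0.69 (SE 0.25; 95% CI from 0.19 to 1.20; limma adjusted p = 0.251).

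Akr1c14 (chromosome 13, 4048991 to 4090560) is a hydroxysteroid dehydrogenase that reduces androgens to less active forms in immature Leydig cells. It had the largest fold change. It had 22.9 and 20.7 in control and 43.2 and 48.4 in knockout, from 28, 18, 38 and 54 reads in the same order. The mean was 2.11-fold higher, and both knockout values lay above both controls. The log2 fold change came to 1.04 (SE 0.48; 95% CI from 0.06 to 2.02; limma adjusted p = 0.432), with a wide interval at this low number of reads.

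Insl3 (chromosome 8, 71689252 to 71690577) encodes the insulin-like peptide hormone that Leydig cells secrete and that guides testis descent. It stood at 49.0 and 45.9 in control and 119 and 68.2 in knockout, again without overlap. knockout replicate 1 stood well above replicate 2, and group means were 47.4 ± 2.16 and 93.7 ± 36.1 (SD, n = 2 each). The log2 fold change came to 0.91 (SE 0.36; 95% CI from 0.18 to 1.65; limma adjusted p = 0.325).

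The genes did not follow the same order of libraries. Star, Cyp17a1 and Insl3 were highest in knockout replicate 1, and Lhcgr, Cyp11a1, Fdx1, Hsd3b1, Hsd17b3 and Akr1c14 in knockout replicate 2. For Lhcgr the knockout libraries were almost level, at 124 and 127. Over all tested genes, knockout replicate 1 was the highest library for 28.3% and replicate 2 for 24.5%. Relative to its own mean over the 4 libraries, on the log2(value + 1) scale, Cyp17a1 was at 0.85 in knockout replicate 1 and at -0.13 in replicate 2. Hsd3b1 was at -0.36 and 0.47 in the same libraries. The log2 ratio of Cyp17a1 to Hsd3b1, chosen after the values were seen, was therefore 1.99 in knockout replicate 1 and 0.18 in replicate 2, against 0.09 and 0.85 in control replicates 1 and 2. Cyp17a1 took 44.6% of the reads of the 10 genes in knockout replicate 1 and 25.3% to 37.5% in the other libraries.

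**Figure D2:**
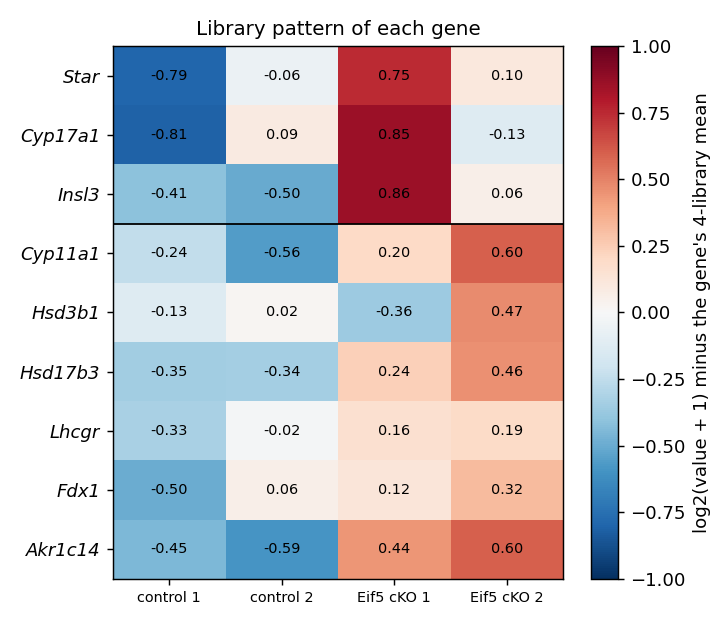
Colour and number give log2(value + 1) minus the gene's mean over the 4 libraries, for the 9 tested genes (rows) in each library (columns). Star, Cyp17a1 and Insl3, above the line, peak in Eif5 cKO replicate 1, and the other 6 genes in Eif5 cKO replicate 2. Rows are grouped by these same values, and Lhcgr is almost level in the Eif5 cKO libraries (0.16 and 0.19).

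Set against the median of the other tested Leydig genes in the same library, Akr1c14 was higher and Lhcgr lower in both knockout libraries than in both controls. For Akr1c14 this log2 difference was -2.56 and -2.98 in control and -2.51 and -2.32 in knockout, a separation smaller than the gap between the controls. For Lhcgr it was -0.66 and -0.63 in control and -1.01 and -0.95 in knockout. The remaining 7 genes overlapped between groups on this scale. The share of all tested genes that separates on this scale was not computed. On the normalized values, both knockout libraries lay above both controls for 20.0% of all tested genes and below for 20.9%. The Hsd3b6 to Hsd3b1 log2 ratio was -6.93 and -5.36 in control and -7.39 and -7.83 in knockout with a pseudocount of 1, and the knockout values rest on 1 and 2 reads of Hsd3b6.

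Leaving out a library changed which Leydig genes passed. Without knockout replicate 2, limma called 3 of the 9 higher, against 0.843% of all tested genes: Star (log2 fold change 1.17, adjusted p = 0.0253), Cyp17a1 (1.22, adjusted p = 0.00784) and Insl3 (1.31, adjusted p = 0.0490). Over all alternatives the adjusted p of these genes ran from 0.0253 to 0.925, from 0.00784 to 0.962 and from 0.0490 to 0.822. Without knockout replicate 1, limma called Cyp11a1 alone (1.00, adjusted p = 0.0450; range over all alternatives 0.0450 to 0.752), against 0.0992% of all tested genes called higher. Cyp17a1 then had a log2 fold change of 0.23, Star 0.53 and Insl3 0.52. Without control replicate 1 or control replicate 2, limma called 0 of the 9, against 0.00827% and 0.0165% of all tested genes called higher. Without control replicate 1 the values were 0.28 for Cyp17a1, 0.48 for Star and 0.16 for Fdx1, and without control replicate 2 they were 1.17, 1.21 and 0.72. Hsd17b3 and Akr1c14 moved least, from 0.58 to 0.80 and from 0.96 to 1.12. With 1 library left in a group, that library is assumed to vary like the other group.

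**Figure D3:**
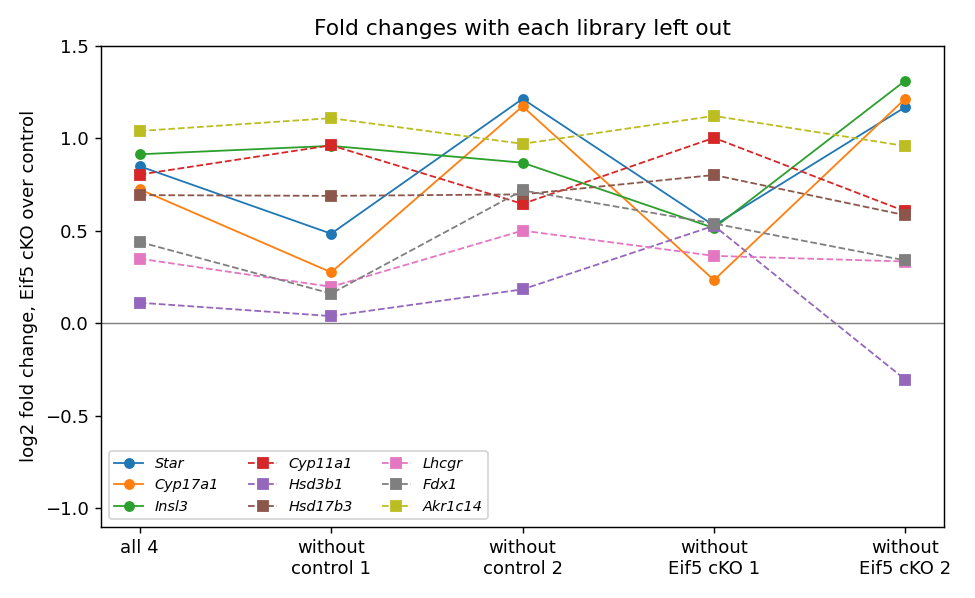
log2 fold change of Eif5 cKO over control for the 9 tested genes, with all 4 libraries and with each library left out; lines join the points of a gene. Cyp17a1, Star and Insl3 (solid lines) lie between 0.23 and 1.31 and are lowest for Cyp17a1 without Eif5 cKO replicate 1, while Hsd3b1 falls to -0.31 without Eif5 cKO replicate 2.

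The size of the Leydig fold changes depended on which genes set the scale of the libraries. With trimmed-mean (TMM) factors, library totals and upper-quartile factors, the median of the 9 Leydig genes was 0.71, 0.68 and 0.74. Under each of these, all 9 were positive, 0 were called and 6 had an unadjusted p under 0.05 by limma. Scaling on Sertoli, macrophage, peritubular myoid and endothelial genes moved the median of all tested genes to -0.28 and that of the 9 Leydig genes to 0.44. The fold changes of 8 of the 9 stayed positive, and that of Hsd3b1 was -0.18. With the summed reads of the Sertoli list as scale, the median of all tested genes was -0.44 and that of the Leydig genes 0.27, and Hsd3b1 (-0.34), Lhcgr (-0.10) and Fdx1 (-0.0096) had a negative sign. With either of these somatic scales limma called 0 of the 9, and 0 had an unadjusted p under 0.05.

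**Figure D4:**
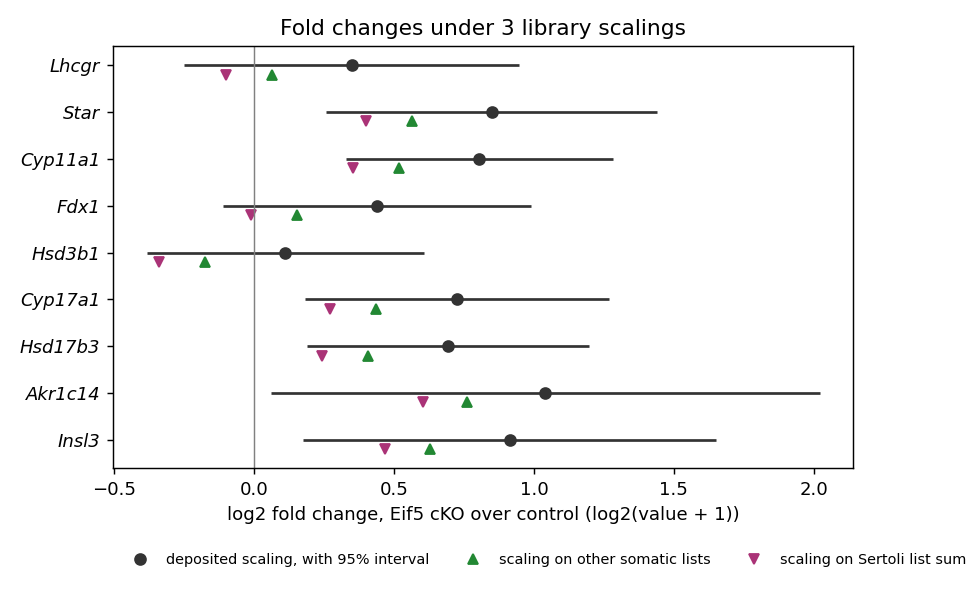
log2 fold change of Eif5 cKO over control for the 9 tested genes, with 95% intervals for the deposited scaling (black circles) and point values for scaling on other somatic lists (green) and on the Sertoli list sum (purple). The median is 0.72 with the deposited scaling and 0.44 and 0.27 with the others.

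The marker lists of other somatic cell types differed in the sign of their median, and limma called none of their genes. The share of all reads taken by the 10 Leydig genes was 0.0719% and 0.0871% in controls 1 and 2 and 0.122% and 0.114% in knockouts 1 and 2. The 20 Sertoli genes took 2.60% and 3.35% in control and 4.51% and 3.41% in knockout, and 13 of the 19 tested were highest in knockout replicate 1. The 14 macrophage genes took 0.0535% and 0.0613% in control and 0.0719% and 0.0781% in knockout. Median log2 fold changes were 0.36 for 19 tested Sertoli genes, 0.42 for 13 macrophage genes, 0.21 for 10 interstitial stroma genes, 0.10 for 10 endothelial genes and -0.19 for 9 peritubular myoid genes, with 0 called in each list. At an unadjusted p under 0.05 limma counted 8, 2, 0, 0 and 0 genes in these lists, against 10.6% of all tested genes. edgeR and DESeq2 each called 1 Sertoli gene higher and limma-voom 2, with 0 in the other 4 lists, against 0.0992%, 0.0496% and 0.157% of all tested genes. The peritubular myoid genes took 0.296% and 0.284% of reads in control and 0.273% and 0.230% in knockout, and 7 of the 9 had a negative sign. The erythroid list, not drawn in the figure, had a median of 0.51 over 4 tested genes. All 4 were highest in knockout replicate 1, and limma called 0. These genes took 0.00760% and 0.00602% of reads in control and 0.0119% and 0.00661% in knockout. Of the 20 germ cell genes tested, none had a positive sign and the median was -1.08. The part of these cell types in the Leydig values was not tested.

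Within each library, the summed Leydig reads were 0.0276 and 0.0260 of the Sertoli reads in control and 0.0271 and 0.0334 in knockout. Against interstitial stroma the ratios were 0.0584 and 0.0613 in control and 0.0735 and 0.0835 in knockout, which did not overlap. Against macrophage genes they were 1.35 and 1.42 in control and 1.70 and 1.46 in knockout. These ratios follow the genes with most reads, such as Cyp17a1. As a difference of list medians on the log2 scale, each gene taken relative to its own mean, Leydig minus macrophage genes gave -0.02 and 0.06 in control and -0.07 and 0.02 in knockout, which overlapped. The same difference from Sertoli genes also overlapped, at -0.13 and 0.03 in control and -0.13 and 0.21 in knockout. From stroma genes it was -0.05 in each control and 0.09 and 0.13 in knockout, without overlap. From peritubular myoid genes it was -0.44 and -0.08 in control and 0.15 and 0.49 in knockout. From endothelial genes it was -0.38 and -0.19 in control and -0.03 and 0.54 in knockout. The groups did not overlap for these lists either.

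**Figure D5:**
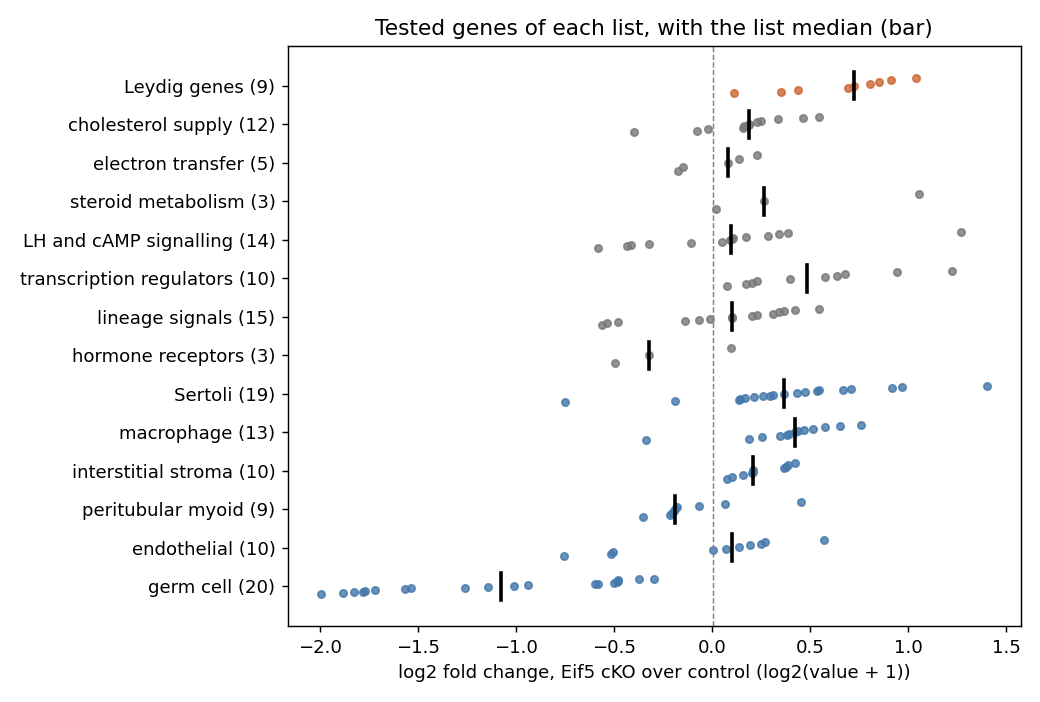
log2 fold change of Eif5 cKO over control for each tested gene of the Leydig list (orange), of other genes of the pathway (grey) and of markers of other cell types (blue); the number tested is in brackets, the bar is the list median and the dashed line the median of all tested genes. The Leydig median is 0.72, the Sertoli median 0.36 and the germ cell median -1.08.

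Other genes of the pathway were taken as 7 lists, of which 62 different genes were tested; some, such as Dhh, Kitl, Kit and Pdgfra, are also on a marker list of another cell type. limma called 1 of them higher and 0 lower, against 0.0744% and 0.604% of all tested genes. Their median log2 fold change was 0.17, with 44 positive and 18 negative signs. With scaling on other somatic lists the median turned to -0.12, with 18 positive and 44 negative signs, and on the Sertoli list sum to -0.28, with 10 and 52. The called gene was Gnas, the stimulatory G protein subunit that couples Lhcgr and many other receptors to cyclic AMP. It had 59.6 and 64.3 in control and 156 and 145 in knockout (log2 fold change 1.27, SE 0.31; limma adjusted p = 0.0338). It passed in edgeR and limma-voom but not in DESeq2, nor with scaling on other somatic lists. It also failed the test without either control or without knockout replicate 1. The Gnas locus makes several overlapping transcripts, including antisense RNA, which the table does not separate. Of the 14 tested genes of luteinizing hormone and cyclic AMP signalling, 9 had a positive and 5 a negative sign. Pde8b, a cyclic AMP phosphodiesterase, had 84.9 in each control and 57.9 and 54.7 in knockout (-0.58, SE 0.35) and did not pass.

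All 10 tested transcription regulators had a log2 fold change above 0 (median 0.48), with 0 calls and 5 genes at an unadjusted p under 0.05, against 0.0744% of all tested genes called higher and 10.6% at an unadjusted p under 0.05. The other tests (edgeR, DESeq2, limma-voom) called 0 as well. With scaling on other somatic lists 6 were positive and 4 negative. Gata4, an activator of gonadal steroid genes that Sertoli cells also express, had 194 and 250 in control and 378 and 330 in knockout (log2 fold change 0.68, SE 0.24; limma adjusted p = 0.245). Both knockout libraries lay above both controls. Nr5a1 itself, added after its values were seen, had 204 and 139 in control and 217 and 291 in knockout (0.57, SE 0.26) and did not pass.

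Cholesterol supply genes had a median of 0.19 over 12 tested genes. Scarb1, the receptor that takes up high-density lipoprotein cholesterol, had 627 and 822 in control and 1058 and 925 in knockout (log2 fold change 0.46, SE 0.23). Stard4, a cytosolic cholesterol carrier, had 161 and 169 in control and 122 and 127 in knockout (-0.40, SE 0.27). Neither passed. Electron transfer genes had a median of 0.08 over 5 tested genes, with overlapping groups for Fdxr (0.23, SE 0.27), the reductase that serves Fdx1, and Por (-0.17, SE 0.25), which serves Cyp17a1.

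Of the lineage signals, 9 of 15 had a positive sign and the median was 0.10. Dhh, the Sertoli hedgehog ligand that promotes Leydig differentiation, had 469 and 601 in control and 837 and 720 in knockout (log2 fold change 0.55, SE 0.23), and Kit, a receptor present on spermatogonia and Leydig cells, 858 and 1030 in control and 680 and 666 in knockout (-0.48, SE 0.22). Steroid metabolism had 3 tested genes with a median of 0.26. Its members with the smallest p were Hsd11b2, a glucocorticoid-inactivating enzyme (1.05, SE 0.71), and Srd5a3, a member of the steroid reductase family (0.26, SE 0.34). Hsd11b2 had 31 and 4 reads in control and 22 and 26 in knockout, so its groups overlapped. Its log2 fold change by edgeR was 0.63. Hormone receptors had a median of -0.32 over 3 tested genes, including the estrogen receptor gene Esr1 (-0.32, SE 0.39). None of these genes passed. In these lists limma called 0 genes, against 0.0744% of all tested genes called higher and 0.604% lower. The tests on recovered reads (edgeR, DESeq2, limma-voom) called 0, against 0.0992%, 0.0496% and 0.157% of all tested genes called higher. At an unadjusted p under 0.05 limma counted 1 of 12 cholesterol supply genes and 2 of 15 lineage genes. It counted 0 of 5 electron transfer, 0 of 3 steroid metabolism and 0 of 3 hormone receptor genes, against 10.6% of all tested genes.

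The 6 genes looked up as markers of adrenal-like cells were near the limit of counting or had no row. Cyp11b1 had 4 and 1 reads in control and 0 and 13 in knockout, and Akr1b7 5 and 11 in control and 13 and 10 in knockout. Only these 2 of the 6 had a row, and Cyp21a1 had none under that name. Of 5 tested genes on the list of Leydig stage markers, 4 had a positive sign, with a median log2 fold change of 0.30. limma, edgeR, DESeq2 and limma-voom called 0, against 0.0744%, 0.0992%, 0.0496% and 0.157% of all tested genes called higher. At an unadjusted p under 0.05 limma counted 1 of the 5, against 10.6% of all tested genes. Thbs2 (-0.07, SE 0.23) and Dlk1 (0.38, SE 0.23) are known from fetal Leydig cells or their precursors, and Vcam1 (0.61, SE 0.23) and Ptgds (0.12, SE 0.46) from adult Leydig cells; the fifth was Cbr2 (0.30, SE 0.35). With scaling on the Sertoli list sum the median of these 5 was -0.15. Without the filter, 6 of the 8 stage genes with a row had a positive sign and 2 a negative sign. Hsd11b1, an enzyme of adult Leydig cells, had 6 and 5 reads in control and 8 and 10 in knockout, and was not tested. Of the other steroid metabolism genes not tested, Srd5a1 had 9 and 7 reads in control and 18 and 2 in knockout. Sult1e1 had 10 and 0 reads in control and 0 and 3 in knockout.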

How the data were processed

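The submitters' processing notes name Bowtie2, STAR, featureCounts and the build GRCm38 and give no versions. The deposited signal is 1 column per library, named raw counts. Its values were whole multiples of 1 step per column for 100% of values (relative tolerance 1e-06). The reciprocals of the steps equalled median-of-ratios size factors. The table lists genes with at least 10 reads over the 4 libraries. limma 3.58.1 (R 4.3.3) was fitted with a trend to log2(value + 1), with group as sole term, for genes that passed filterByExpr (edgeR 4.0.16, minimum count 10) on recovered reads, with two-sided Benjamini-Hochberg adjusted p-values. edgeR and DESeq2 1.42.0 were alternatives. The members and lists were chosen with earlier results of these data known. Named genes were the members, Eif5, and in each pathway list every called gene and the 2 with the smallest p; other genes, such as those of Leydig stages and adrenal markers, were named after their values were seen. For 2 of the pathway lists, 1 gene that this rule names is not reported here. Levels per coding length were not computed. Replicate numbers were not used to pair the libraries in the main fit. Deviations of same-numbered libraries correlated at -0.05 across genes. With 2 libraries per group this cannot settle whether same-numbered libraries were paired. No column belonged to other samples.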

Additional observations from a re-analysis of the deposited data

How the results depend on the processing

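In 17 alternative fits, the 9 Leydig genes gave 143 results with the sign and side of the threshold kept, 4 that passed in place of failing and 5 with the sign turned (Akr1c14 did not pass the stricter filter). The sign turned for Hsd3b1 with scaling on other somatic lists (-0.18), on the Sertoli list sum (-0.34) and without knockout replicate 2 (its range with a library left out was -0.31 to 0.53), and for Lhcgr (-0.10) and Fdx1 (-0.0096) on the Sertoli list sum. The Leydig median was 0.44 and 0.27 under these scalings and 0.48 to 0.72 with a library left out. Leaving out a library gave 0 to 3 Leydig calls, 10 to 346 calls over all genes and 0 or 1 call in the pathway lists. Scaling on other somatic lists gave 125 calls over all genes and 0 in the pathway lists, and DESeq2 gave 0 in the pathway lists; the cause was not tested. With replicate number as a block the Leydig median was 0.72, with 0 Leydig calls and 100 over all genes. The pathway lists were refitted after seeing the data. Levels per coding length were not run. Depth limits Hsd3b6 and Akr1c14 most.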
